A study of Mus musculus with 9 samples.

Results

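The S100 genes encode small calcium-binding proteins, and the transcripts of 8 of them, S100a1, S100a4, S100a6, S100a8, S100a9, S100a10, S100a11 and S100a13, are described here in macrophages of 3 mouse organs. The genes were taken by symbol from a table of 15434 genes, and all 8 were found. RNA was sequenced from macrophages of the testis, the epididymis (the duct in which sperm mature) and the brain, with 3 libraries per organ. All animals had the C57BL/6J background, the cells were neither cultured nor treated, and the labels give no ages. The sort kept live CD45+ CD11b+ F4/80+ cells without Ly6C or CD11c after enzymatic digestion and a Percoll step, and the brain cells are called microglia in the titles. Each organ carries a single mouse number, so organ and mouse cannot be told apart, and the p-values rest on the spread among the libraries of an organ, which could be technical. The protocol also speaks of combining testis and epididymis suspensions in a tube of their own, and how that bears on the libraries is not stated.

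S100 proteins carry a pair of EF-hand loops, helix-loop-helix motifs that hold calcium, and most work as dimers that change shape when calcium rises and then grip a target protein. Inside cells they act on the cytoskeleton, on annexins and on membranes, and some are released and act on receptors such as Tlr4 and Ager (RAGE). S100a8 and S100a9 form calprotectin, the abundant cytosolic protein of neutrophils and inflammatory monocytes, which also binds zinc and manganese. S100a4 binds non-muscle myosin, S100a6 binds annexins and Cacybp, S100a11 binds annexin A1, and S100a13 takes part in the release of Fgf1 and Il1a. S100a1 is best known from heart muscle, where it acts on calcium channels and pumps. S100a10 has lost the ability to bind calcium and forms a complex with annexin A2 that holds plasminogen at the cell surface.

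All 8 genes lie on mouse chromosome 3. On GRCm38 (GENCODE M21), S100a1 lies from 90511034 to 90514392 on the minus strand and S100a13 from 90514435 to 90524581 on the plus strand, head to head with 42 bases between them. S100a4 lies from 90603771 to 90606045, and S100a6 from 90612882 to 90624181, 6.8 kb further along, both on the plus strand. S100a8 lies from 90668978 to 90670035 on the plus strand and S100a9 from 90692632 to 90695721 on the minus strand, 22.6 kb apart. These 6 genes fit in 184.7 kb, and S100a11 (93520488 to 93526287) and S100a10 (93555080 to 93564643) follow after a gap of 2.82 Mb, with 28.8 kb between them. In the annotation 302 exonic bases of S100a4 are shared with Gm42674, another gene model of the same strand, and S100a11 has a processed pseudogene, S100a11-ps, on another chromosome. How shared reads were counted is not stated in the labels, so values of S100a4 and S100a11 carry that uncertainty.

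Promoter sequences are shown for the genes whose organ patterns are the clearest below, and for the shared start region of S100a1 and S100a13. Each runs 5′ to 3′ along the gene's strand from 250 bases before to 50 bases after the RefSeq start (RefSeq, GRCm38.p6). Capitals mark matches, on either strand, to TATAAA (the TATA box). They also mark the C/EBP letters TTNCNNAA. A PU.1 match is GAGGAAG, and an AP-1 match is TGANTCA, and no marked matches overlap. The first pair, S100a8 at chr3:90668821-90669120 (plus strand) and S100a9 at chr3:90695672-90695971 (minus strand), had reads almost only in brain libraries. The second pair, S100a4 at chr3:90603520-90603819 and S100a6 at chr3:90612644-90612943 (plus strand), was highest in testis. S100a11, at chr3:93520246-93520545 (plus strand), is shown because it holds the only AP-1 matches.
S100a8: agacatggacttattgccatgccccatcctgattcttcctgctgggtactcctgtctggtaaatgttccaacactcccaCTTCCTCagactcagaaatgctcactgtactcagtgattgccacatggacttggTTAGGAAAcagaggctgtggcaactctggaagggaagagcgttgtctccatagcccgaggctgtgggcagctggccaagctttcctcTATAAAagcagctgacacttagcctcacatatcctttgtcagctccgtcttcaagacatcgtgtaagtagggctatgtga
S100a9: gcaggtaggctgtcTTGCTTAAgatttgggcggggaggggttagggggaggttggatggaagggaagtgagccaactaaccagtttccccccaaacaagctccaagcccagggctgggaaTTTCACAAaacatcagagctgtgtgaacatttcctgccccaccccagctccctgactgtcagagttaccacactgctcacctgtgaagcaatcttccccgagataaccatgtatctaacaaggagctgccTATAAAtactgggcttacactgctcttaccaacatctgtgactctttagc
S100a4: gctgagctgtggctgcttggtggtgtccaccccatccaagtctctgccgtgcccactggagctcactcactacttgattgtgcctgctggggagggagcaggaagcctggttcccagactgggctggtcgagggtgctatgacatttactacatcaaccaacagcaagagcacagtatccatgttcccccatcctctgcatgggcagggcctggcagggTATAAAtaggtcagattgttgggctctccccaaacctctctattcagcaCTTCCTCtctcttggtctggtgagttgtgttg
S100a6: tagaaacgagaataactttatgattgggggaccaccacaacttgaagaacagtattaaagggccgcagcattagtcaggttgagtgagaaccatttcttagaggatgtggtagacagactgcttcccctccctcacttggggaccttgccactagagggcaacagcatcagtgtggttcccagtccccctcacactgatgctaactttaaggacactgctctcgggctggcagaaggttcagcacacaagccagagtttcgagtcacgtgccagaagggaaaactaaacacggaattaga
S100a11: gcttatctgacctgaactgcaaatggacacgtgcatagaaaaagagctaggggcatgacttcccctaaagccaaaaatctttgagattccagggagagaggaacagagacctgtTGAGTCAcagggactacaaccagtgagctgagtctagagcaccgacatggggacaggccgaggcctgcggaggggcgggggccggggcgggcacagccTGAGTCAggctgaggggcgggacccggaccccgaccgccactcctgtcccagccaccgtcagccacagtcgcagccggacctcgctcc

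Promoters of 7 of the 8 genes were in the RefSeq table, and that of S100a10 was not used here. TATAAA was found in 3 of these 7, at 30 bases before the start in S100a8, 31 before it in S100a4 and at the start itself in S100a9, and it occurs in 13.6% of 32851 promoters of this length. C/EBP letters were found in S100a8 (117 bases before the start) and S100a9 (130 and 236 before it), 2 of 7, against 40.7% of all promoters. PU.1 letters were found in S100a4, 18 bases after the start, and in S100a8, 171 before it, against 13.6%. AP-1 letters occurred 2 times in S100a11, 38 and 136 bases before the start, against 7.81% of promoters with any. None of these letters occurred in the windows of S100a1, S100a6 and S100a13. Matches describe letters in the window and are not binding sites.

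S100a13 and S100a1 start back to back, and the following stretch at chr3:90514185-90514484 (plus strand, in the direction of S100a13) holds both starts. Capitals mark the 42 bases between the GENCODE gene bodies.
S100a13: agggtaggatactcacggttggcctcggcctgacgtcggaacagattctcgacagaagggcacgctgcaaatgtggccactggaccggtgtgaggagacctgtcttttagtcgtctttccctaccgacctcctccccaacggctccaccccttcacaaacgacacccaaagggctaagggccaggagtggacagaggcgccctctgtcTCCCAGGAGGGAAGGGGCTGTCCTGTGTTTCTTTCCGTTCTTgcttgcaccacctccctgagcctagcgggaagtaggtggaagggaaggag

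Depth ranged from 2727092 to 4458688 reads per library, and a single read was worth 0.808 to 1.11 normalised reads, the unit of all values below unless another is named. Testis replicate 1 scored -155.26 on the first principal component (25.1% of the variance), against -73.25 and -75.07 for the other testis libraries. Epididymis replicate 3 scored -156.81 on the second (16.9%), against -45.26 and -79.26 for the other epididymis libraries. On the third (14.2%) these 2 libraries stood apart at 99.13 and 97.16, with epididymis replicate 2 at the other end (-94.62). Ptprc, Itgam and Adgre1, which encode the CD45, CD11b and F4/80 of the sort, had reads in every library. The list of 10 macrophage markers gave 49.1 to 52.6 reads per 10000 in testis libraries, 80.1 to 85.8 in those of epididymis and 111 to 115 in those of brain. Csf1r had the highest values of this list, with means of 8045, 14065 and 21646 normalised reads in testis, epididymis and brain. Not all its genes followed this order, with Lyz2 at means of 3327, 2298 and 284. By the limma call given below, 2 of the 10 were higher and 3 lower in testis than in brain, against 6.82% and 4.83% of all genes tested. The microglia list (9 genes in the table) gave 2.66 to 4.37 in testis, 13.4 to 18.6 in epididymis and 91.1 to 97.3 in brain. A gene was tested if it reached 10 normalised reads in at least 3 libraries, and was called at an adjusted p below 0.05 by limma, fitted to log2(value + 1) over all 9 libraries with Benjamini-Hochberg adjustment over 11766 genes. All 8 S100 genes met that filter, but S100a8 and S100a9 did so through the brain libraries alone, and S100a4 and S100a11 would not have met it without the testis libraries. The filter thus fixed a difference between organs for S100a8 and S100a9, and favoured one for S100a4 and S100a11. Counts and medians over the 8 genes below are therefore descriptions, and nothing is read from their distance to the share or median of all genes.

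Together the 8 genes gave 7.30 ± 2.44 reads per 10000 in testis libraries, 0.758 ± 0.138 in those of epididymis and 0.857 ± 0.316 in those of brain (mean ± SD of 3 libraries, as for all values of this form below). In bulk libraries fewer cells that express a gene and less RNA per cell cannot be told apart. The make-up of the family differed as well. S100a6 gave 69.8% ± 9.47 of the summed normalised reads of the family in testis and 42.2% ± 11.9 in epididymis, but 11.3% ± 6.91 in brain. S100a8 and S100a9 gave 33.7% ± 4.01 and 35.1% ± 23.5 in brain, and neither had a read in testis. In the moderated F test over the organs 4 of the 8 genes were called, S100a4, S100a6, S100a8 and S100a9, against 11.4% of all genes tested. S100a4, S100a8 and S100a9 are among the genes that needed the libraries of 1 organ to meet the filter. The count was 1 without brain replicate 1.

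**Figure D1:**
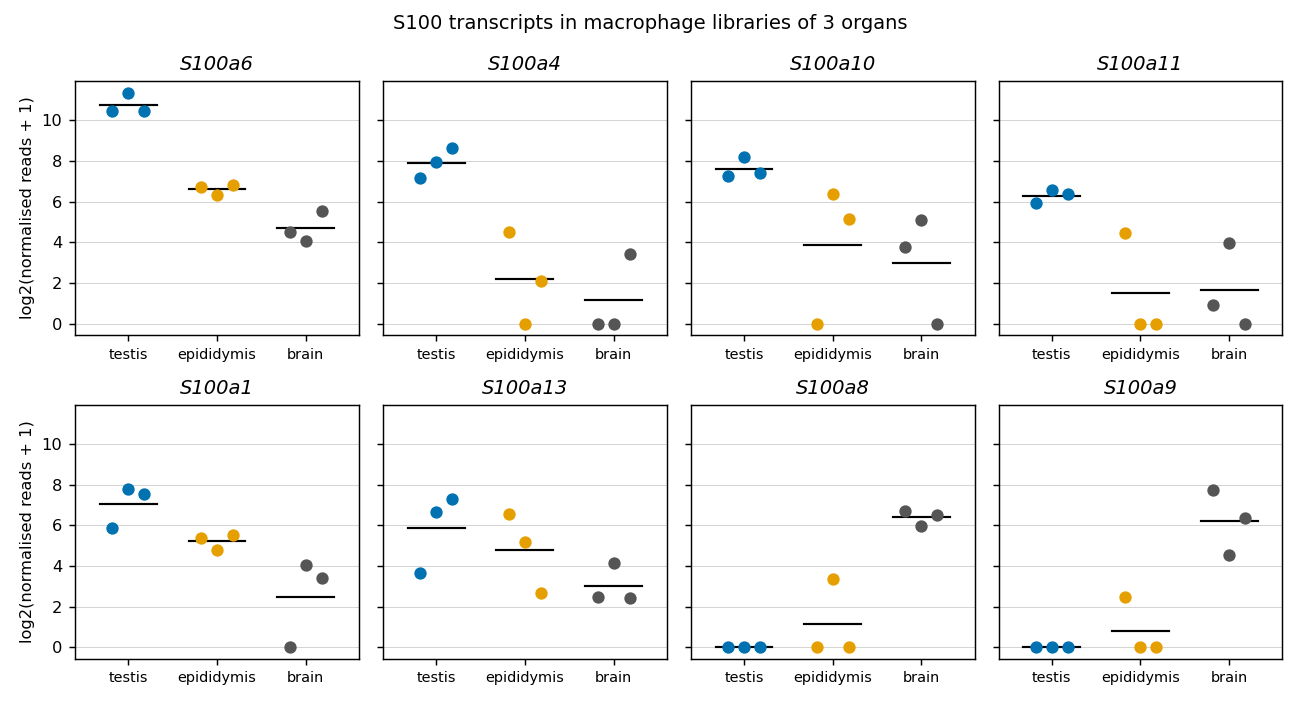
Each point is 1 library and each bar the mean of the 3 values of an organ, as log2(normalised reads + 1). S100a6 lies highest in testis with no overlap between organs, while S100a8 and S100a9 have reads in all 3 brain libraries and in no testis library.

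Levels per kilobase of principal transcript allow the genes to be ranked within an organ. In testis S100a6 came first at 2485 ± 971 normalised reads per kb, followed by S100a4 at 522 ± 256, S100a10 at 298 ± 114 and S100a1 at 228 ± 126. The SDs of S100a4, S100a10 and S100a1 overlap. These genes were measured in the same libraries, so that overlap alone does not settle their order, which was not tested. In epididymis S100a6 was first at 135 ± 24.1 per kb, and S100a13 (61.9 ± 61.3), S100a10 (57.0 ± 60.5) and S100a1 (55.4 ± 14.7) lay within each other's spread. In brain S100a9 and S100a8 were first at 201 ± 184 and 176 ± 43.3 per kb, also within their spread, and S100a6 followed at 38.2 ± 22.1.

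S100a6, known as calcyclin, is a partner of annexins that is commonly high in dividing and activated cells. It had 1392, 2635 and 1421 normalised reads in testis libraries, 105, 78.8 and 112 in epididymis libraries and 21.9, 15.6 and 46.2 in brain libraries. Each testis library lay above each epididymis library, and each of those above each brain library. The log2 fold change was 4.14 (SE 0.48) for testis over epididymis (limma adjusted p = 0.00021) and 6.05 (SE 0.48) for testis over brain (limma adjusted p = 7.9e-07). Both calls held under all 21 alternatives, with adjusted p up to 0.013 and 0.00058. For epididymis over brain the log2 fold change was 1.91 (SE 0.48, limma adjusted p = 0.031). That call was lost in 7 of 9 fits that left out 1 library, all but those without epididymis replicate 2 or brain replicate 3, with adjusted p up to 0.24 over all alternatives.

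S100a4, the myosin-binding relative that is also called fibroblast-specific protein, had 139.8, 247 and 393 normalised reads in testis libraries, 21.8, 0 and 3.23 in epididymis libraries and 0, 0 and 9.78 in brain libraries. The testis libraries lay above all others, and epididymis and brain overlapped. It was higher in testis than in brain with a log2 fold change of 6.76 (SE 1.61, limma adjusted p = 0.012). That call was lost without testis replicate 3 (limma adjusted p = 0.0508), without brain replicate 1 (0.057), without brain replicate 2 (0.053) and with a pseudocount of 0.1 (0.0502). For testis over epididymis the log2 fold change was 5.71 (SE 1.61) and did not pass (limma adjusted p = 0.061). It passed in 4 of 21 alternatives, among them DESeq2 on the recovered reads (adjusted p = 0.0053) and the fit without epididymis replicate 1 (adjusted p = 0.0455), and adjusted p was up to 0.21 over all of them. For epididymis over brain the estimate was 1.05 (SE 1.61, 95% interval -2.38 to 4.49, limma adjusted p = 0.82), and it turned to -0.10 without epididymis replicate 1.

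S100a10, the annexin A2 partner, had 150.1, 294 and 168 normalised reads in testis libraries, 0, 82.5 and 34.5 in epididymis libraries and 12.8, 33.4 and 0 in brain libraries. The testis values lay above those of both other organs, which overlapped and each had a library at 0. Neither testis contrast passed, with log2 fold changes of 3.77 (SE 1.68, limma adjusted p = 0.26) over epididymis and 4.65 (SE 1.68, limma adjusted p = 0.094) over brain. The contrast over brain passed in 4 of 21 alternatives, with adjusted p down to 0.012 at a pseudocount of 10. S100a11, a partner of annexin A1, had 60.0, 94.5 and 82.9 in testis libraries, 20.9, 0 and 0 in epididymis libraries and 0.911, 14.5 and 0 in brain libraries. The pattern was like that of S100a10, with testis above and the other organs overlapping. Its log2 fold changes were 4.82 (SE 1.67, limma adjusted p = 0.13) for testis over epididymis and 4.67 (SE 1.67, limma adjusted p = 0.091) for testis over brain, and neither passed.

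S100a1, a regulator of calcium channels and pumps in muscle, had 58.0, 218 and 187 normalised reads in testis libraries, 40.9, 26.3 and 45.3 in epididymis libraries and 0, 15.6 and 9.78 in brain libraries. The organs did not overlap, in the order testis, epididymis, brain. The contrast of testis over brain was called (log2 fold change 4.58, SE 1.27, limma adjusted p = 0.028). The call was lost without testis replicate 2 (limma adjusted p = 0.12), without testis replicate 3 (0.11), without brain replicate 1 (0.081) and with a pseudocount of 0.1 (0.071). Testis over epididymis (log2 fold change 1.84, SE 1.27, limma adjusted p = 0.50) and epididymis over brain (2.74, SE 1.27, limma adjusted p = 0.30) did not pass.

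S100a13, the head-to-head neighbour of S100a1, had 11.4, 101 and 156 normalised reads in testis libraries, 91.8, 35.6 and 5.39 in epididymis libraries and 4.55, 16.7 and 4.44 in brain libraries. Every pair of organs overlapped, and no contrast passed (limma adjusted p = 0.75 for testis over epididymis, 0.26 for testis over brain and 0.62 for epididymis over brain). The 2 neighbours did not keep a fixed balance, since the ratio of S100a1 to S100a13 was 5.09, 2.16 and 1.2 in testis libraries and 0.446, 0.737 and 8.4 in epididymis libraries. Among brain libraries it was 0.933 and 2.2 in replicates 2 and 3, and S100a1 had no read in replicate 1.

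S100a8, the smaller partner of calprotectin, had 0 normalised reads in each testis library, 0, 9.38 and 0 in epididymis libraries (10 reads) and 104, 62.4 and 89.8 in brain libraries. S100a9, its partner, had 0 in each testis library, 4.55, 0 and 0 in epididymis libraries (5 reads) and 209, 22.3 and 80.9 in brain libraries. For both genes every brain library lay above all libraries of the other organs, which follows from their meeting the filter through the brain libraries alone. The limma calls below are therefore given as descriptions of these values. Against a floor of 3 reads per library, which covers counting error only, S100a8 was at least 31.6-fold and S100a9 at least 38.6-fold lower in testis than in brain. Brain replicate 1 carried much of the second bound, which was 19.1-fold without it and 53.8-fold without brain replicate 2. limma called both (adjusted p = 0.0082 for S100a8 and 0.010 for S100a9), and the calls held under all 21 and all 20 alternatives, with adjusted p up to 0.033 and 0.044. Epididymis stood at 3.13 ± 5.42 for S100a8 and 1.52 ± 2.62 for S100a9, against 85.3 ± 21.1 and 104 ± 95.8 in brain. Those contrasts passed narrowly (log2 fold changes -5.28 and -5.38, SE 1.43 and 1.44, limma adjusted p = 0.0475 and 0.044). With no filter beyond a value above 0, 1 S100 gene was called for epididymis over brain in place of 3. The S100a8 call was lost in each leave-one-out fit other than that without epididymis replicate 2, and the S100a9 call in each other than those without epididymis replicate 1 or brain replicate 2, with adjusted p up to 0.28 and 0.15 over all alternatives.

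The 2 calprotectin genes ranked the brain libraries in the same order, highest in replicate 1 and lowest in replicate 2. Their balance was not fixed, with a ratio of S100a9 to S100a8 of 2.02, 0.357 and 0.901 in replicates 1, 2 and 3. Some transcripts of neutrophils had reads in the brain libraries only, at low values, while others were higher outside brain. Of 15 listed neutrophil genes 9 were in the table, of which 5 had no read in testis, 5 none in epididymis and 1, Ly6g, none in brain. Ngp, Camp, Ltf and Retnlg, which encode granule and secreted proteins of neutrophils and were singled out after their values were seen, had 185 reads in brain libraries and 0 in the 6 other libraries. They summed to 67.4, 75.8 and 38.2 normalised reads in brain replicates 1, 2 and 3, beside 313, 84.7 and 171 for S100a8 and S100a9 together. The largest single value was 44.6, for Camp in brain replicate 1. Other listed genes for secreted neutrophil proteins had reads outside brain, with Lcn2 at 59.4 ± 27.8 in testis, 18.9 ± 18.4 in epididymis and 6.02 ± 5.92 in brain. Mmp9 had 41.4 normalised reads in testis replicate 1 and 5.46 in brain replicate 1, and none in the other libraries. The whole neutrophil list gave 0.650 to 1.04 reads per 10000 in testis libraries, 0.580 to 1.33 in epididymis and 1.14 to 1.76 in brain, with Cxcr2 at 203 ± 56.2, 170.2 ± 74.0 and 93.7 ± 19.1 normalised reads. Csf3r, the G-CSF receptor gene, stood at 6.10 ± 5.29 in testis, 74.1 ± 24.5 in epididymis and 259.5 ± 66.1 in brain. The part of these transcripts in the S100a8 and S100a9 values was not tested.

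**Figure D2:**
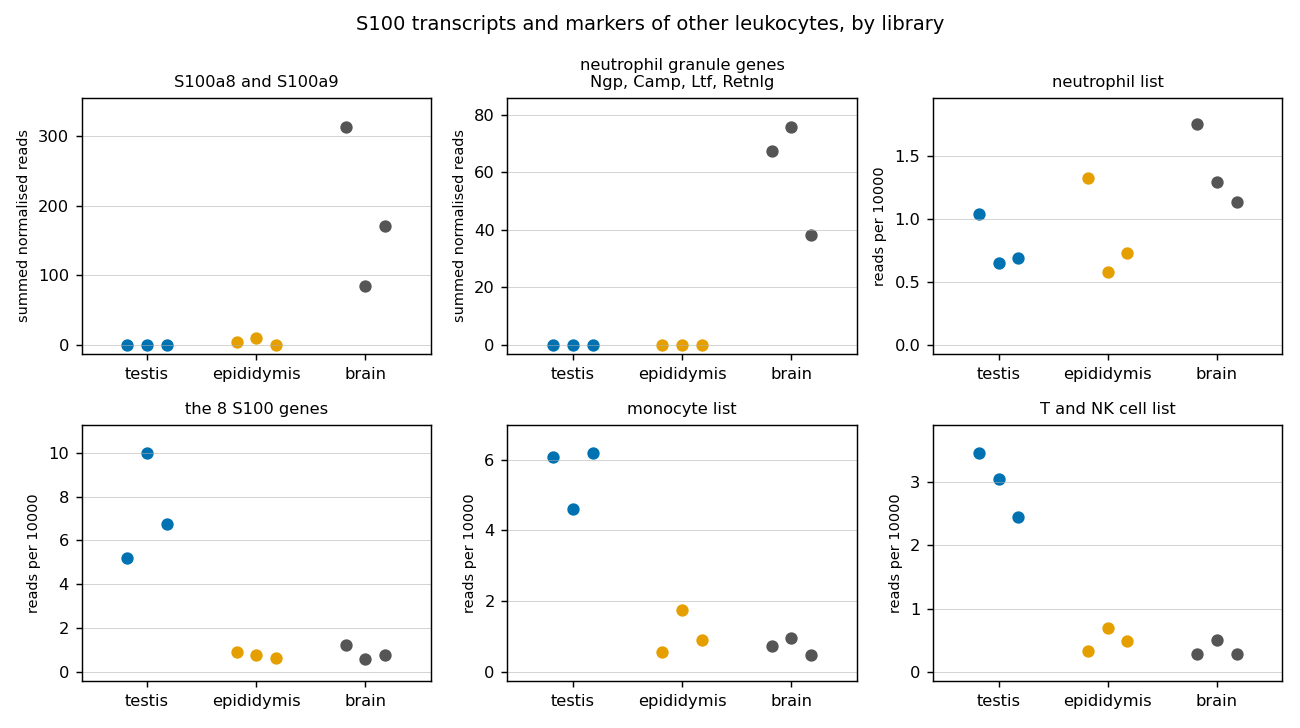
Each point is 1 library. The upper row gives the summed normalised reads of S100a8 and S100a9, those of Ngp, Camp, Ltf and Retnlg, chosen from the neutrophil list after their values were seen, and the reads per 10000 of the neutrophil list, and the lower row the reads per 10000 of the 8 S100 genes, the monocyte list and the T and NK cell list. These 4 genes sum to 38.2 to 75.8 in brain libraries and 0 elsewhere, and the lower row is highest in testis in all 3 plots.

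Marker lists of several other cell types had higher levels in testis than in 1 or both other organs, beside the S100 genes that were high there. The monocyte list (8 genes in the table) gave 4.61 to 6.18 reads per 10000 in testis libraries, 0.560 to 1.74 in epididymis and 0.483 to 0.950 in brain, and 2 of its genes had no read in epididymis. Ccr2, the chemokine receptor of monocytes, gave most of it, at 1343 ± 197, 45.3 ± 27.7 and 90.4 ± 11.6 normalised reads in testis, epididymis and brain. Ly6c2, which encodes part of the antigen excluded by the sort, stood at 81.6 ± 19.3, 11.1 ± 18.4 and 20.4 ± 22.9. The T and NK cell list (8 genes) gave 2.46 to 3.46 in testis, 0.325 to 0.700 in epididymis and 0.280 to 0.510 in brain, with 1 gene without a read in epididymis and 3 in brain. The fibroblast list (6 genes) gave 0.209 to 0.463 in testis, 0.152 to 0.409 in epididymis and 0.0540 to 0.213 in brain. Its testis libraries overlapped those of both other organs, so it was not set apart in testis. The Sertoli and germ cell list (7 genes) gave 1.66 to 4.71 in testis, 1.88 to 2.72 in epididymis and 0.221 to 0.345 in brain, again with testis and epididymis overlapping, and 3 of its genes had no read in brain. The Leydig cell list gave 4.04 to 10.5 in testis, 0.0910 to 0.643 in epididymis and 0.249 to 0.336 in brain, with 6 and 4 of its 8 genes without a read in epididymis and brain. The part of these cells in the S100 values was not tested.

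Counted over the family, 1 of 8 genes was called for testis over epididymis, where 4.39% of all genes tested were called, 2.49% higher and 1.9% lower in testis. For testis over brain 5 of 8 were called, 3 higher and 2 lower, against 11.7% of all genes, 6.82% higher and 4.83% lower. For epididymis over brain 3 of 8 were called, 1 higher and 2 lower, against 4.79%, 2.99% higher and 1.8% lower. The 2 lower calls in each comparison with brain were S100a8 and S100a9, and without the filter the counts were 5 for testis over brain and 1 for epididymis over brain. The count for testis over brain was 3 without testis replicate 3 or brain replicate 1, and 7 with DESeq2 or a pseudocount of 10. The count for epididymis over brain was 0 without any 1 testis library, epididymis replicate 3 or brain replicate 1, and 1 without epididymis replicate 1, brain replicate 2 or brain replicate 3. With testis replicate 1 and epididymis replicate 3 both left out, the 3 counts were 1, 6 and 0. All 3 testis libraries lay above all 3 epididymis libraries for 5 of 8 genes, against 11% of all genes, and below them for 0, against 8.8%. They lay above all 3 brain libraries for 5 and below them for 2, against 15.9% and 14.9% of all genes. Epididymis lay above brain without overlap for 2 genes and below it for 2, against 10.5% and 11.5%. The median log2 fold change of the 8 genes was 2.81 for testis over epididymis, 4.62 for testis over brain and 0.97 for epididymis over brain, against 0.10, -0.07 and -0.13 over all genes tested. The 3 comparisons share libraries. With libraries scaled to the same total, the median over all genes moved to -0.05, -0.29 and -0.18, and the share of calls that were higher in testis than in epididymis was 42.5% in place of 56.8% (46.6% with quantile normalization), and that for testis over brain 46% in place of 58.6%. No called S100 gene changed direction under any scaling.

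**Figure D3:**
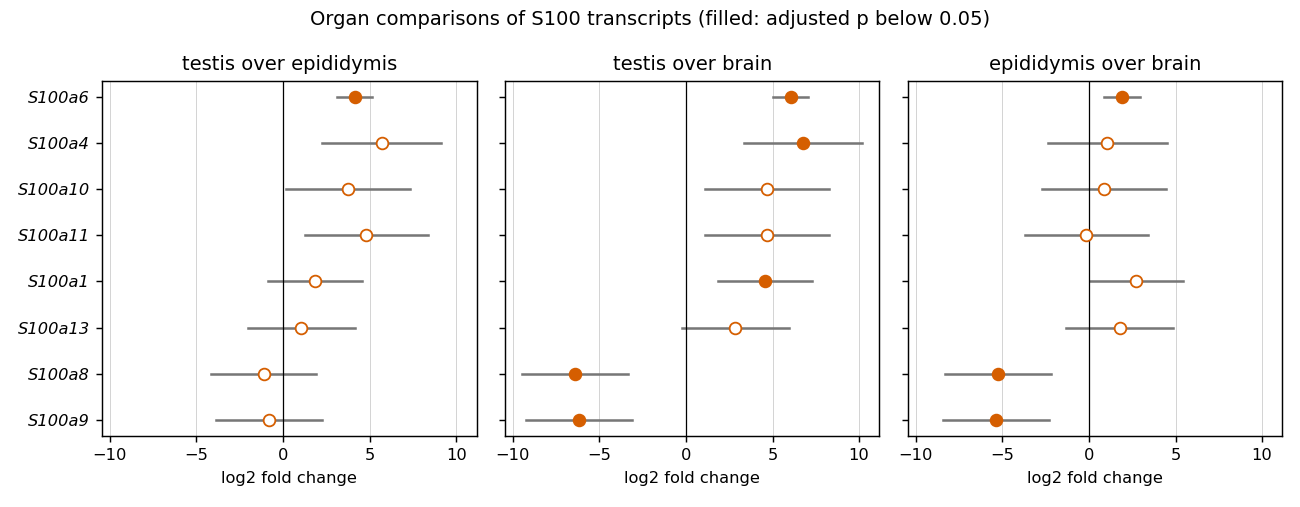
Log2 fold changes of the 8 genes with 95% intervals in the 3 comparisons, filled where the limma adjusted p was below 0.05. Only S100a6 is filled in all 3 plots, and S100a8 and S100a9 lie left of 0 in both comparisons with brain.

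Along the chromosome the organ order of the 8 genes differed between stretches. S100a4 and S100a6, 6.8 kb apart, were both highest in testis. S100a8, 44.8 kb beyond S100a6, and S100a9 had their reads in brain, and S100a11 and S100a10, past the 2.82 Mb gap, were again highest in testis. The ratio of S100a6 to S100a4 was 9.96, 10.7 and 3.61 in testis libraries, 4.83 and 34.7 in epididymis replicates 1 and 3 and 4.73 in brain replicate 3, with no S100a4 read in the other libraries.

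**Figure D4:**
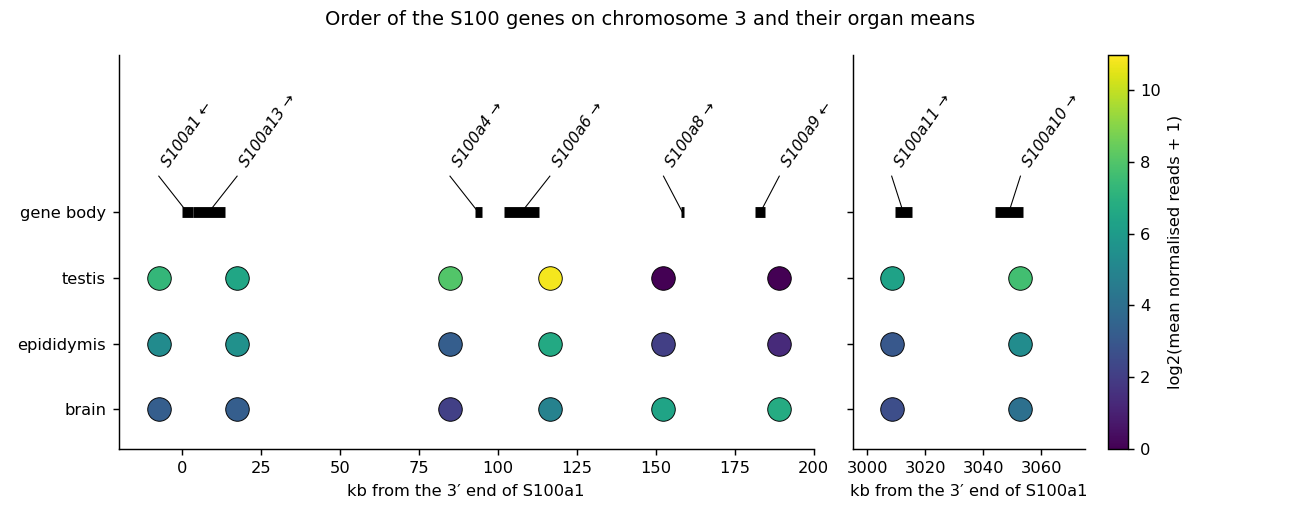
Gene bodies (black) are drawn to scale by distance from the 3′ end of S100a1, with arrows for strand, and circles give the organ mean as log2(mean normalised reads + 1), placed under each gene's name. Of the 8 genes drawn, only S100a8 and S100a9 have a higher mean in brain than in testis.

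Of 11 further names of the family on a list (10 S100 genes and the S100-binding gene S100pbp), 6 were in the table and 3 were tested, and none was called in any comparison. S100a3 had 58.0, 21 and 44.5 normalised reads in testis libraries, 0, 62.8 and 27.0 in epididymis libraries and 2.73, 182 and 132 in brain libraries. S100b, best known from astrocytes, had 53.8, 48.5 and 0 in testis libraries, 0, 42.2 and 0 in epididymis libraries and 0, 47.9 and 2.67 in brain libraries. Values of both overlapped between organs. S100pbp, which encodes an S100-binding protein, had 212, 107 and 53.9 in testis libraries, 10.9, 32.8 and 21.6 in epididymis libraries and 49.2, 5.57 and 50.7 in brain libraries. Its testis libraries lay above all others, and the contrasts of testis over epididymis (log2 fold change 2.37, SE 1.11) and over brain (2.07, SE 1.11) did not pass (limma adjusted p = 0.29 for both). S100a7a, S100a16 and S100g were at or near 0 in most libraries, with at most 25.5 normalised reads.

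Of 10 genes listed as receptors or co-receptors of released S100 proteins, 8 were tested. In testis over epididymis 1 was higher and 7 did not pass (median log2 fold change 0.61), and in testis over brain 2 were higher and 6 did not pass (median 0.88). In epididymis over brain 1 was higher and 7 did not pass (median 0.38). Of all genes tested, 4.39%, 11.7% and 4.79% were called in testis over epididymis, testis over brain and epididymis over brain. Nothing is read from the distance of this list, or of the lists of partner genes below, to those shares. Alcam, an adhesion molecule reported as an S100b receptor, had 215, 194 and 240.2 normalised reads in testis libraries, 0.909, 1.88 and 3.23 in epididymis libraries and 0, 1.11 and 1.78 in brain libraries. It was called over epididymis (log2 fold change 6.25, SE 1.38, limma adjusted p = 0.018) and over brain (6.91, SE 1.38, limma adjusted p = 0.0035). Cd36, a scavenger receptor that also takes up fatty acids carried by calprotectin, stood at 409.6 ± 195 in testis, 652 ± 171 in epididymis and 3.56 ± 5.4 in brain, and was called in both comparisons with brain. Tlr4, the endotoxin receptor that calprotectin can engage, stood at 69.7 ± 39.5 in testis, 116 ± 55.8 in epididymis and 118 ± 6.98 in brain, and did not pass. Ager had reads in epididymis replicate 2 (47.8) and brain replicate 3 (8.0) only and was not tested.

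Of 10 tested genes for signalling below these receptors, 1 was higher in testis than in epididymis (median log2 fold change 0.68), 1 higher in testis than in brain (median 0.01) and none was called between epididymis and brain (median -0.47). The called gene was Nfkbia, the NF-kB inhibitor that NF-kB itself induces, at 17889 ± 373 in testis, 5574 ± 1042 in epididymis and 6933 ± 2360.3 in brain (limma adjusted p = 0.00041 over epididymis and 0.00038 over brain).

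Among annexins and genes of plasminogen binding, 10 of 12 listed were in the table and 9 were tested. For testis over epididymis 1 was higher and 8 did not pass (median log2 fold change 1.97), and for testis over brain 2 were higher, 1 lower and 6 did not pass (median 1.58). For epididymis over brain 1 was higher and 8 did not pass (median 0.86). Ahnak, the giant scaffold that binds the S100a10 and annexin A2 complex, had 2982, 2529 and 3126 normalised reads in testis libraries, 112, 130.4 and 163 in epididymis libraries and 10.9, 105 and 15.1 in brain libraries. The organs did not overlap, and all 3 contrasts were called (log2 fold changes 4.42, 6.72 and 2.30, SE 0.61, limma adjusted p = 0.00075, 2.4e-06 and 0.044 for testis over epididymis, testis over brain and epididymis over brain). Anxa2 itself stood at 128 ± 70.7 in testis, 61.4 ± 53.4 in epididymis and 10.0 ± 17.4 in brain, and did not pass. Anxa5, which binds phosphatidylserine, stood at 332 ± 170.5 in testis, 79.1 ± 21.2 in epididymis and 12.8 ± 19.0 in brain, and was called over brain (log2 fold change 5.80, SE 1.12, limma adjusted p = 0.0027). Plgrkt, a plasminogen receptor, was lower in testis, at 126 ± 60.1, than in brain, at 358 ± 77.6 (log2 fold change -1.61, SE 0.45, limma adjusted p = 0.028).

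**Figure D5:**
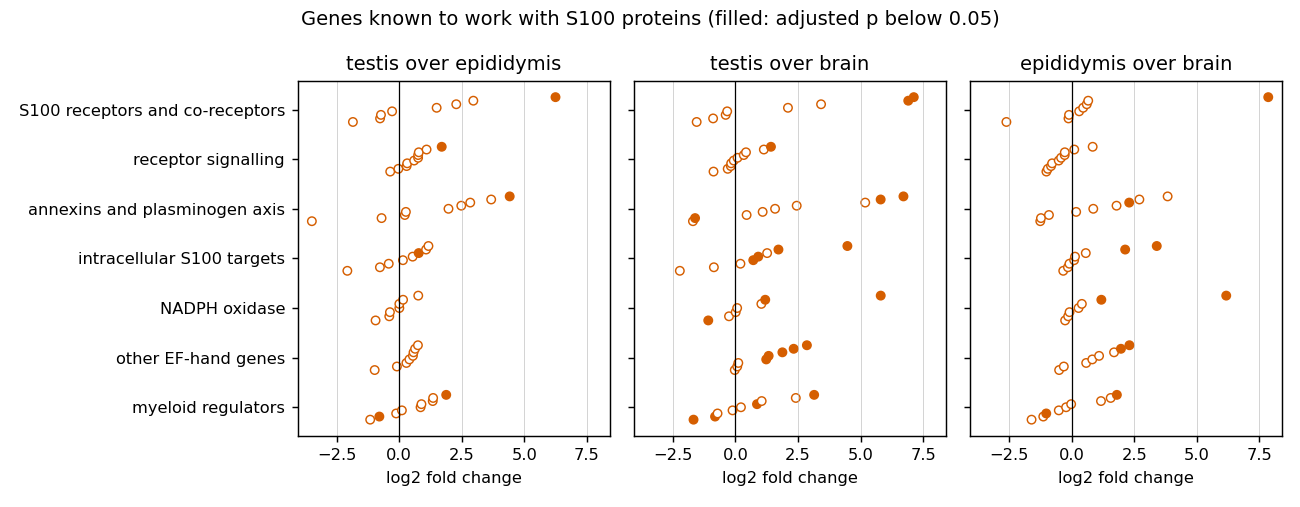
Each point is 1 tested gene of 7 lists of genes known to work with S100 proteins, placed by its log2 fold change and filled where the limma adjusted p was below 0.05. Called genes are fewest in testis over epididymis and lie mostly right of 0 in testis over brain. Of all genes tested, 4.39%, 11.7% and 4.79% were called in testis over epididymis, testis over brain and epididymis over brain.

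Other genes encode proteins that S100a4, S100a6 or calprotectin bind inside cells, or partners of these. Of 8 tested, 1 was higher in testis than in epididymis (median log2 fold change 0.34), 4 were higher in testis than in brain (median 0.81) and 2 higher in epididymis than in brain (median 0.12), with none lower. Of all genes tested, 2.49%, 6.82% and 2.99% were called higher in these comparisons. Iqgap1, a scaffold of actin and calmodulin, stood at 2807 ± 345 in testis, 1346 ± 274 in epididymis and 146 ± 105 in brain (limma adjusted p = 9.7e-07 for testis and 3.8e-05 for epididymis, each over brain). Myh10, a non-muscle myosin, stood at 269 ± 9.52, 363 ± 54.4 and 84.5 ± 27.8 in testis, epididymis and brain. Myh9, the myosin that S100a4 binds, was the fourth gene called over brain, at 1821 ± 412 against 1096 ± 84.1 (log2 fold change 0.71, SE 0.22, limma adjusted p = 0.0453). Actb, the cytoplasmic actin, stood at 23534 ± 1222 in testis, 13717 ± 583 in epididymis and 12702 ± 2920.1 in brain, and was called in both testis comparisons.

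The phagocyte oxidase makes superoxide, and calprotectin hands it arachidonic acid. Of 7 tested genes, none was called between testis and epididymis (median log2 fold change 0.00), 2 were higher and 1 lower in testis than in brain (median 0.07) and 2 were higher in epididymis than in brain (median 0.28). Cybb, the catalytic subunit, stood at 2443 ± 256 in testis, 3154 ± 240.3 in epididymis and 43.6 ± 12.3 in brain. Its log2 fold changes over brain were 5.81 in testis and 6.18 in epididymis (SE 0.25 each, limma adjusted p = 1.3e-09 and 4.6e-10). Cyba, its membrane partner, was also called in both, at 1199 ± 169, 1207 ± 275 and 539.6 ± 180.2 in testis, epididymis and brain, and Ncf1 was lower in testis (350.5 ± 41.3) than in brain (775 ± 269). The organs with high Cybb were those with few or no reads of S100a8 and S100a9.

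Among 8 tested EF-hand genes outside the family none was called between testis and epididymis (median log2 fold change 0.48), 5 were higher in testis than in brain (median 1.28) and 2 higher in epididymis than in brain (median 0.96). Capns1, the small calpain subunit, was called in testis over brain. Calm3, a calmodulin gene, stood at 355 ± 223 in testis, 349.5 ± 148 in epididymis and 91.6 ± 47.6 in brain, and was called over brain in both organs. Aif1 (Iba1), an EF-hand protein used to stain macrophages, stood at 524 ± 317, 929 ± 373 and 425 ± 130.1 and did not pass.

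Of 9 tested myeloid transcription factor genes, 1 was higher and 1 lower in testis than in epididymis (median log2 fold change 0.85), 2 were higher and 2 lower in testis than in brain (median 0.22) and 1 was higher and 1 lower in epididymis than in brain (median -0.22). Klf4 stood at 6506 ± 1385 in testis, 1748 ± 159 in epididymis and 3712 ± 1531 in brain, and Irf8 at 2015 ± 200.2, 3484 ± 66.5 and 3547 ± 389. Klf4 was called higher and Irf8 lower in testis than in either other organ, and Klf4 lower in epididymis than in brain. Cebpa, a C/EBP factor of myeloid progenitors, was lower in testis (125 ± 37.1) than in brain (396 ± 68.1, limma adjusted p = 0.0085). Bhlhe40 was higher in testis (576 ± 176) and epididymis (244 ± 142) than in brain (64.6 ± 21.1).

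Genes most like an S100 gene over the 9 libraries were taken by Pearson's r of log2(value + 1), for S100 genes called in the F test with an organ mean of at least 110, which left S100a4 and S100a6. The libraries share organ, so r mostly reflects the organ means and is given as a description. For S100a6 the closest genes were Rpl38, a ribosomal protein gene (r = 0.99, organ means 7510, 2611 and 1294 in testis, epididymis and brain), and Myl6, a myosin light chain gene (r = 0.99, means 2763, 1069 and 643). For S100a4 they were A330032B11Rik (r = 0.99, means 1254, 469.5 and 354.9) and Gstm5, a glutathione transferase gene (r = 0.97, means 129.4, 1.27 and 1.48).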

How the data were processed

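RNA was sequenced from sorted macrophages of testis, epididymis and brain, 3 libraries each. The deposited table holds signal values, which the authors obtained by dividing the reads of each gene by 1 factor for each library. CASAVA 1.8, Bowtie2 2.2.1, Partek 6.6, DESeq2 and mm10 are named per the submitters' processing notes, and no counting rule or annotation is given. Every value was a whole multiple of the smallest value above 0 in its library (100% within 1e-06 reads), so whole reads were recovered, and the factors equalled median-ratio size factors (largest relative difference 3.7e-15). Libraries held 2727092 to 4458688 reads, and replicates differed by more than sampling noise.

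Values were analysed as log2(value + 1) with limma 3.58.1 in R 4.3.3, with 1 mean per organ, variances moderated with a trend (6 residual and 9.08 prior degrees of freedom), and a filter of 10 normalised reads in at least 3 libraries (11766 genes). Folds on this scale understate changes of low genes. edgeR 4.0.16 and DESeq2 1.42.0 on the recovered reads, other scalings, filters and pseudocounts, and leave-outs were alternatives. The procedure was tested on simulated data. The S100 genes and the lists of partners and markers were chosen with earlier results of these data known. Up to 3 called genes with the largest fold changes were named per list and comparison, and Tlr4, Ager, Anxa2, Myh9, Aif1 and the named marker genes were added with their values known. 1 gene that the rule would name is not reported here. Positions are from GENCODE M21, whose GRCm38 assembly is that of mm10, and promoters from RefSeq GRCm38.p6. The kit is not described as marking strand in the labels.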

Additional observations from a re-analysis of the deposited data

How the results depend on the processing

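Of 501 refitted log2 fold changes of the S100 genes, 432 kept direction and side of the threshold, 45 lost a call, 12 gained one and 12 changed sign, all of the last uncalled. With 1 library left out, log2 fold changes ranged from -0.0012 to 2.18 for S100a13 in testis over epididymis, and in epididymis over brain from -0.10 to 2.2 for S100a4, -0.60 to 2.80 for S100a10 and -1.63 to 1.02 for S100a11. The sign of S100a11 in epididymis over brain (-0.14) turned to 0.07 with a pseudocount of 10, 0.13 with quantile normalization, 0.43 with edgeR, 0.46 with DESeq2, 0.60 without epididymis replicate 2 or 3 and 1.02 without brain replicate 2, and 0.60 without testis 1 and epididymis 3, a setting chosen after seeing the data. S100a10 in the same contrast turned to -0.39 without epididymis replicate 2 and -0.60 without brain replicate 3, S100a4 to its lowest value without epididymis replicate 1, and S100a13 in testis over epididymis without epididymis replicate 3.

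S100 genes called in testis over epididymis numbered 1, or 3 with a pseudocount of 10 and 2 with a filter of 50 or DESeq2 (1 to 2 with 1 library left out). In testis over brain they numbered 5, or 3 with a pseudocount of 0.1 and 7 with a pseudocount of 10 or DESeq2 (3 to 6). In epididymis over brain they numbered 3, or 1 with a pseudocount of 0.1, no filter, a filter of 50 or edgeR, and 0 with only the 6 libraries compared or without testis 1 and epididymis 3 (0 to 2). Among organs they numbered 4, or 7 with a pseudocount of 10 (1 to 5). The cause was not tested.

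Over all genes, calls in testis over epididymis numbered 516, but 192 without the variance trend, 250 with 6 libraries, 783 with DESeq2 and 198 without testis 1 and epididymis 3 (278 to 442 with 1 library left out). In testis over brain they numbered 1371, or 837 without the trend (827 to 1457). In epididymis over brain they numbered 564, or 306 without the trend and 913 with DESeq2 (320 to 597), and among organs 1337, or 737 without the trend (859 to 1302). No paired analysis was possible because the labels give no replicate number or other link between libraries of different organs. S100a8, S100a9, S100a11 and S100a4 had no read in several libraries, and the part of depth in this was not tested. Testis libraries, which had no read of S100a8 and S100a9, held 3383929 to 4458688 reads, and brain libraries 2727092 to 3516387.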
